A study of Mus musculus with 9 samples.

Results

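The genes that decide whether a cell leaves G1 were followed in splenic type 2 dendritic cells: 10 genes, taken by symbol from a fixed list, of 24054 genes in the files and 14452 genes tested. They are the D cyclins Ccnd1, Ccnd2 and Ccnd3, the kinases Cdk4 and Cdk6, the CDK inhibitors Cdkn2c, Cdkn2d, Cdkn1a and Cdkn1b, and Rb1. All 10 passed the filter on low counts. The study asked whether dendritic cells of early life differ from those of adults, and whether a history of Clec9a expression sets them apart. All mice were C57BL/6 of the genotype Clec9a-Cre/Cre Rosa-tdTomato/tdTomato, so that Cre driven by the Clec9a locus permanently switched on the red reporter TOMATO in dendritic cell progenitors and their progeny. Live, autofluorescence-negative spleen cells positive for MHCII, CD11c and CD11b were sorted into TOM+ and TOM- cells. At postnatal day 8, with spleens pooled, 3 libraries were made from TOM+ cDC2 and 3 from TOM- DC2, and a further 3 were made from TOM+ cDC2 of adults, of which 1 was from mice of 9 weeks and the others from mice of 8 weeks. Adult TOM- cells were not analysed here, so the effect of age could be read in TOM+ cells only, and both comparisons with adults used the same adult libraries. Libraries are named by the number in their deposited names, which is 81, 91 or 92 in both young groups and 91, 92 or 95 in adults.

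In G1, D cyclins made in response to growth signals bind CDK4 or CDK6, and the active kinase phosphorylates the retinoblastoma protein RB1, which then releases E2F factors to switch on genes for DNA replication. Inhibitors of the INK4 family, among them those encoded by Cdkn2c and Cdkn2d, bind CDK4 and CDK6 and keep D cyclins away, whereas the CIP/KIP inhibitors encoded by Cdkn1a (p21) and Cdkn1b (p27) bind complexes of cyclins and CDKs. Dendritic cells divide as progenitors and in part also after they have reached the spleen, and transcripts of the inhibitors are not limited to resting cells.

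Depth was 12783252 to 22809401 reads on genes per library. The defining cDC2 genes were present: all 9 listed markers, such as Itgax, Sirpa and Cd209a, averaged at least 5 TPM in each group. Markers of monocytes and macrophages summed to 238 to 266 TPM in young TOM+ cDC2, 201 to 244 TPM in young TOM- DC2 and 177 to 199 TPM in adults. Both young groups were above the adults, as they were for Cdk4, Ccnd3 and Cdkn2d. Most of this sum was Csf1r, at means of 241, 206 and 169 TPM in these groups, whereas Vcam1 was at 8.86, 12.9 and 13.6 TPM. Ly6c2, Mertk and Fcgr1 averaged 1.98 TPM or less in each group. The part of monocytes and macrophages in the differences of Cdk4, Ccnd3 and Cdkn2d was not tested. Markers of cDC1 summed to 158 to 173 TPM in the young libraries and 184 to 199 TPM in adults. Most of this was Batf3, at means of 160, 158 and 187 TPM in young TOM+ cDC2, young TOM- DC2 and adults. Xcr1 was at 3.3, 3.21 and 2.64 TPM, Tlr3 at 2.9, 2.72 and 2.3 TPM, and Clec9a at 0.173 TPM or less. Markers of pDC summed to 149 to 173 TPM in the young and 162 to 199 TPM in adults. Of these Bst2 was higher in adults (81.7, 90.5 and 118 TPM). Spib (53.9, 49.4 and 41.2 TPM) and Tcf4 (21.9, 18.5 and 18.4 TPM) were not, and Siglech averaged 0.88 TPM or less. Neutrophil markers summed to 0.05 to 14 TPM over all libraries. T cell markers summed to 1.04 to 6.69 TPM in young TOM+ cDC2, 9.7 to 10.7 TPM in young TOM- DC2 and 1.01 to 1.44 TPM in adults, and innate lymphoid cell markers to 3.07 to 4.07, 25.9 to 34.4 and 3.53 to 5.33 TPM. Erythroid markers reached 644 TPM in the young TOM- library 81 and lay between 1.07 and 40.2 TPM in the young TOM+ libraries. The 2 young libraries of 1 number deviated together from their group means (r = 0.75, 0.50 and 0.52 for the numbers 81, 91 and 92, across 10112 genes of 2 libraries each). The young pair 81 stood apart for several of the G1 genes, and values without it are given where they matter.

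The genes covered a wide range of levels. TPM, the transcript level scaled by transcript length and library total, can be compared between genes. In young TOM+ cDC2 Cdk4 (276 ± 5.23 TPM, SD, n = 3) and Ccnd3 (275 ± 20.9 TPM) were highest, with overlapping libraries, and Cdk6 was lowest at 3.0 ± 0.341 TPM. Between these lay Cdkn1a, Ccnd1 and Cdkn2d, each overlapping its neighbour, then Rb1, Ccnd2, Cdkn2c and Cdkn1b, which did not overlap. In young TOM- DC2 the order was the same, but Cdk4 and Ccnd3 did not overlap, and Rb1 and Ccnd2 did. In adult TOM+ cDC2 the order was different: Cdkn1a (188 ± 9.92 TPM) was highest, followed by Ccnd1, Cdk4 and Ccnd3, which overlapped in this order, then Rb1, then Ccnd2, Cdkn2c and Cdkn2d, which overlapped, and again Cdkn1b and Cdk6. This order is that of the RSEM TPM, in which Ccnd3 has more reads than in the STAR counts. By TMM-scaled STAR counts per kilobase (CPM per kilobase) Cdk4 was again highest in both young groups and Cdkn1a in adults, but in young TOM- DC2 Cdkn1a (94.0 ± 26.7 CPM per kilobase) had a higher mean than Ccnd3 (79.8 ± 6.53).

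**Figure D1:**
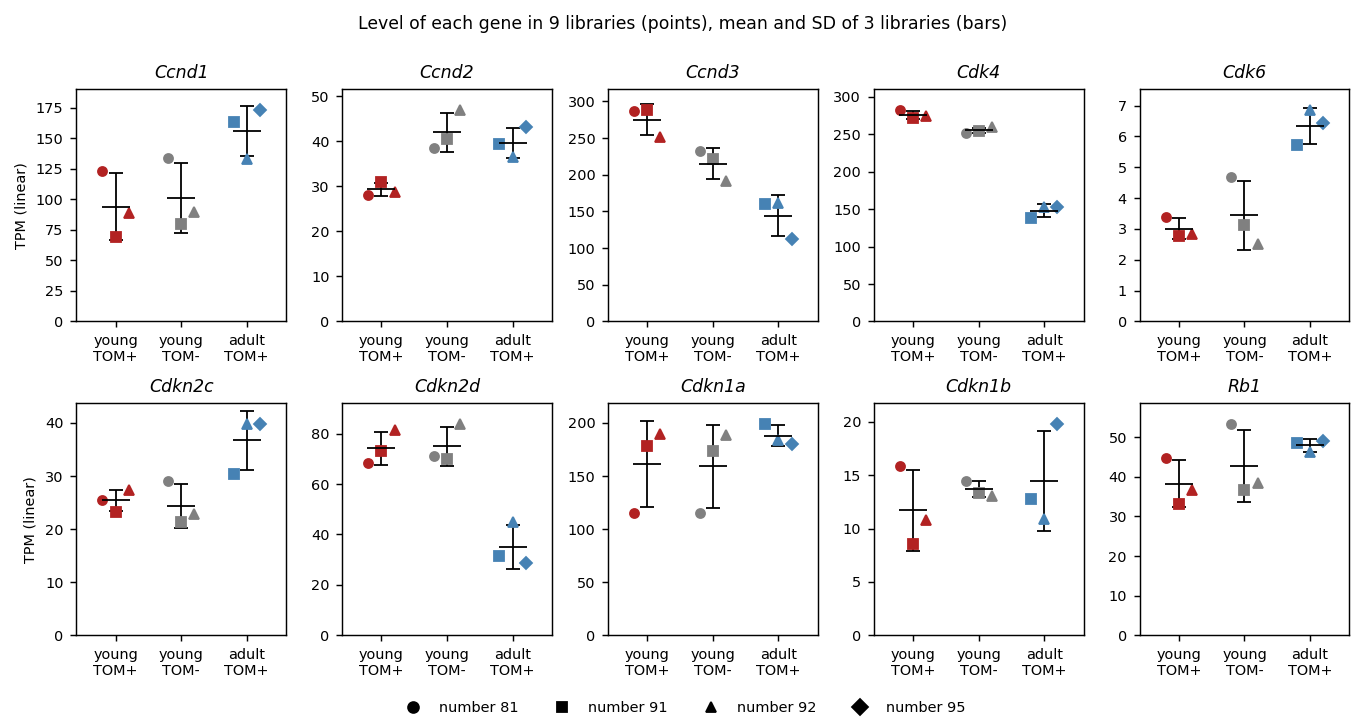
TPM of the 10 genes (vertical axes, linear, from 0) in 3 groups of 3 libraries; symbols mark the library number, horizontal bars the mean and whiskers the SD. Ccnd3, Cdk4 and Cdkn2d were higher in both young groups than in adults without overlap, and Cdk6 and Cdkn2c were lower in both without overlap.

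Between young and adult TOM+ cDC2, 8 of the 10 genes passed the test at an adjusted p under 0.05, beside 40.6% of all genes tested. Of these, 3 were higher in young cells (Cdk4, Ccnd3 and Cdkn2d; 21.0% of all genes) and 5 were higher in adults (Cdk6, Ccnd1, Cdkn2c, Ccnd2 and Rb1; 19.5% of all genes). Only Cdk6 also passed a log2 fold change of 1, which 12.8% of all genes did. The median log2 fold change of the 10 genes was -0.46 and that of all genes tested 0.05, where a negative value means higher in adults. In 8 genes the TPM of the 2 groups did not overlap, as in 52.1% of all genes. With the library number of the young libraries as a block in the fit, 9 of the 10 genes passed, with Cdkn1a added, beside 46.1% of all genes. In bulk libraries such as these, fewer cells with a transcript and less of it per cell cannot be told apart. Age of the mice, the pooling of young spleens and the lower TMM scaling factors of adult libraries (0.894 to 0.928, against 1.02 to 1.08 in the young) went together and cannot be told apart either.

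Between young TOM- DC2 and adult TOM+ cDC2, 6 of the 10 genes passed, beside 36.3% of all genes. Cdk4 and Cdkn2d were higher in the young cells (19.4% of all genes), and Cdk6, Cdkn2c, Ccnd1 and Rb1 were higher in adults (16.9% of all genes). Cdk6 was again past a log2 fold change of 1 (11.3% of all genes), and the TPM of 5 genes did not overlap (50.1% of all genes). The medians were -0.29 for the 10 genes and 0.07 for all genes. With the number block 8 genes passed, with Ccnd3 and Cdkn1a added, beside 42.8% of all genes. These cells differ from the adults both in age and in Clec9a history.

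Between TOM+ cDC2 and TOM- DC2 of postnatal day 8 a single gene of the 10 passed, Ccnd2, which was higher in TOM- DC2, beside 1.60% of all genes and 1.47% in that direction. No gene of the 10 passed a log2 fold change of 1 (1.18% of all genes). Without adjustment 2 genes had a p under 0.05, Ccnd2 and Ccnd3, beside 9.38% of all genes. TPM did not overlap for Ccnd2, Ccnd3 and Cdk4, as in 14.4% of all genes, and the medians were -0.03 for the 10 genes and 0.00 for all. With the number block Ccnd2 was again the 1 gene that passed, beside 2.80% of all genes.

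**Figure D2:**
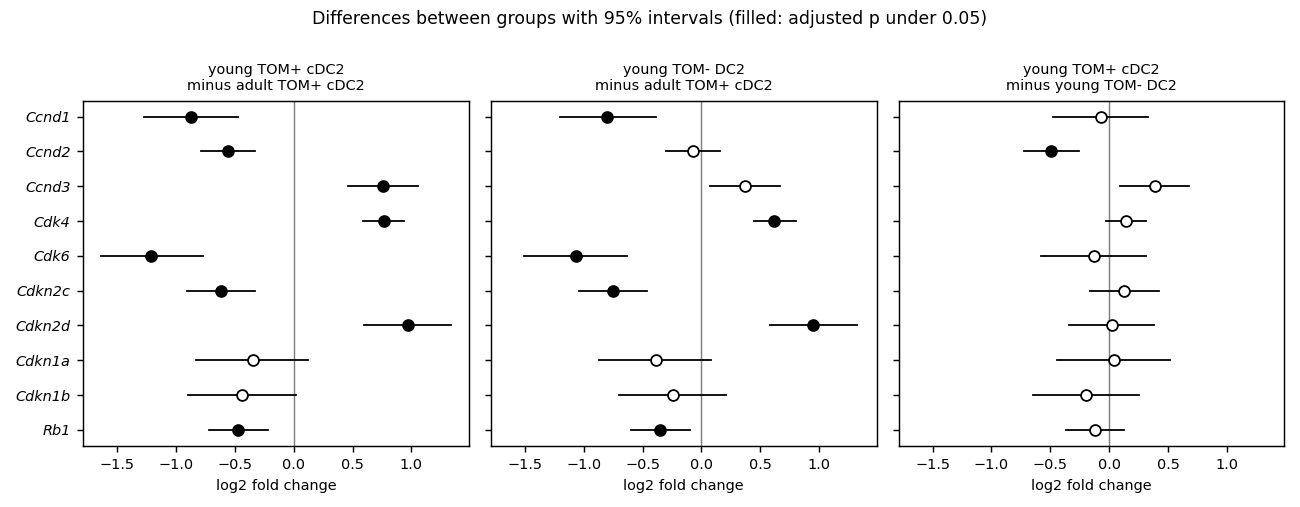
Log2 fold changes of the 10 genes (horizontal axis) in 3 comparisons with 95% intervals from edgeR; filled points passed an adjusted p under 0.05 over 14452 genes. Cdk6 lies farthest to the left (-1.21 and -1.07) and Cdkn2d farthest to the right (0.97 and 0.95) in both comparisons with adults, and Ccnd2 is the filled point between the young groups (-0.49).

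The 3 D cyclins moved in different directions with age. Ccnd3, the D cyclin best known from lymphocytes, was the most abundant of them in young cells, whereas Ccnd1, the D cyclin classically induced by growth factors, was higher in adults. Ccnd3 (chr17:47505051-47599689, build GRCm38) was at 287, 288 and 251 TPM in the young TOM+ libraries 81, 91 and 92, at 232, 221 and 191 TPM in the young TOM- libraries and at 160, 161 and 112 TPM in the adult libraries 91, 92 and 95. The 3 groups did not overlap. By edgeR's quasi-likelihood test it was 1.69-fold higher in young than in adult TOM+ cDC2 (log2 fold change 0.76 ± 0.14, SE, adjusted p = 0.00088). For TOM- DC2 against adults the log2 fold change was 0.37 (95% interval 0.07 to 0.67, adjusted p = 0.053), which passed with the number block (adjusted p = 0.03), without adult library 92 (adjusted p = 0.032) and with limma on log2(TPM + 1) (0.58, adjusted p = 0.0097). It was 0.20 without adult library 95 (adjusted p = 0.14) and 0.32 without young TOM- library 91 (adjusted p = 0.15). Its last 359 bases (chr17:47599331-47599689) overlap the gene Bysl, and reads there were not counted by STAR. RSEM assigned Ccnd3 148% to 155% of the STAR count, against 93.5% to 106% for the other 9 genes. Adding both stranded STAR columns, which count the overlapping reads, made up only a part of this excess. In young TOM+ library 81 Ccnd3 had 4035 reads unstranded, 4798 with both stranded columns added and 6151 by RSEM. The source of the rest was not tested. The difference between young and adult TOM+ cDC2 kept its size between 0.70 and 0.95 over the other ways of counting, scaling and testing. Over single left-out libraries it ranged from 0.59 to 0.86 and always passed. It was lowest without adult library 95 (0.59, edgeR adjusted p = 0.00088).

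Ccnd1 (chr7:144929931-144939831) was at 123, 69.3 and 89.1 TPM in young TOM+ cDC2, at 134, 79.7 and 89.5 TPM in young TOM- DC2 and at 163, 133 and 173 TPM in adults. Both young libraries numbered 81 were the highest of their groups, and TOM- library 81 reached the lowest adult library. Ccnd1 was 1.83-fold higher in adults than in young TOM+ cDC2 (log2 fold change -0.87 ± 0.19, adjusted p = 0.0026) and 1.74-fold higher than in young TOM- DC2 (-0.80 ± 0.19, adjusted p = 0.005). Without the pair 81 these differences were -1.10 and -1.02. The call for TOM- DC2 was lost with limma on log2(TPM + 1) (-0.65, adjusted p = 0.05). Between the young groups its log2 fold change was -0.07 (95% interval -0.48 to 0.33).

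Ccnd2 (chr6:127125162-127152188), whose product is the D cyclin known from B cells and granulosa cells, was lowest in young TOM+ cDC2, while young TOM- DC2 overlapped adult TOM+ cDC2. It was at 28.1, 30.9 and 28.8 TPM in young TOM+ cDC2, at 38.6, 40.6 and 46.9 TPM in young TOM- DC2 and at 39.3, 36.6 and 43.2 TPM in adults. All 3 young TOM+ libraries were below all 6 others. Ccnd2 was 1.40-fold higher in TOM- DC2 than in TOM+ cDC2 of the same age (log2 fold change -0.49 ± 0.11, 95% interval -0.72 to -0.26, adjusted p = 0.04, and 0.0038 with the number block). Within the numbers 81, 91 and 92 the log2 ratio of TPM was -0.46, -0.39 and -0.70. Adults were 1.48-fold higher than young TOM+ cDC2 (-0.56 ± 0.11, adjusted p = 0.0012) and differed from young TOM- DC2 by -0.07 (95% interval -0.30 to 0.16, adjusted p = 0.62). The call between the young groups was lost when the adults were left out of the fit (adjusted p = 0.081). It was also lost without any single one of the young TOM+ libraries 81, 91 or 92, the young TOM- libraries 91 or 92, or the adult libraries 91 or 92, with adjusted p from 0.056 to 0.2 and log2 fold changes from -0.55 to -0.39. B cell markers summed to 61 to 70.7 TPM in young TOM+ cDC2, 70 to 80.8 TPM in TOM- DC2 and 41.1 to 54 TPM in adults, with 4 of 6 under 1 TPM in each group. The T cell and innate lymphoid sums given above were also higher in TOM- DC2, and the part of these cells in the Ccnd2 difference was not tested.

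The makeup of the D cyclin pool also differed between the groups. Ccnd3 made up 65.5%, 74.2% and 68.1% of the summed D cyclin TPM in young TOM+ cDC2, 57.4%, 64.7% and 58.3% in young TOM- DC2 and 44.1%, 48.7% and 34.1% in adults. Its mean share was 69.2 ± 4.48%, 60.2 ± 3.99% and 42.3 ± 7.45% (SD, n = 3 each), and no groups overlapped (exact two-sided permutation p = 0.1 for each pair of groups, the smallest that 3 against 3 can give). Ccnd1 took 23.4 ± 5.18%, 27.9 ± 4.86% and 46.0 ± 6.27% (exact permutation p = 0.1 for both comparisons with adults and 0.5 between the young groups), and within each library number its share was lower in TOM+ than in TOM- cells (differences of -4.91, -5.52 and -3.22 percentage points for 81, 91 and 92). Ccnd2 took 7.39 ± 0.847%, 11.9 ± 2.38% and 11.7 ± 1.30%. These shares rest on RSEM TPM, in which Ccnd3 has more reads than in the STAR counts. By TMM-scaled STAR counts per kilobase the share of Ccnd3 is smaller in each group. In adults its mean was then below that of Ccnd1 (61.7 ± 13.2 against 101 ± 11.3 CPM per kilobase). The summed level of D cyclins varied less, at 399 ± 35.7, 358 ± 41.1 and 340 ± 19.0 TPM (exact permutation p = 0.1 for young against adult TOM+ cDC2, 0.3 between the young groups and 0.7 for TOM- DC2 against adults). By TMM-scaled STAR counts per kilobase Ccnd3, Ccnd1 and Ccnd2 averaged 105, 55.4 and 17.5 in young TOM+ cDC2 and 79.8, 58.4 and 24.6 in young TOM- DC2. They averaged 61.7, 101 and 25.9 in adults, which add to more than in either young group. The direction of the summed level against adults thus depended on the measure. Within the numbers 81, 91 and 92 the summed TPM was 34.0, 47.3 and 41.9 higher in TOM+ than in TOM- cells. These permutation tests do not use the numbers, and 3 pairs cannot give an exact paired p below 0.25.

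**Figure D3:**
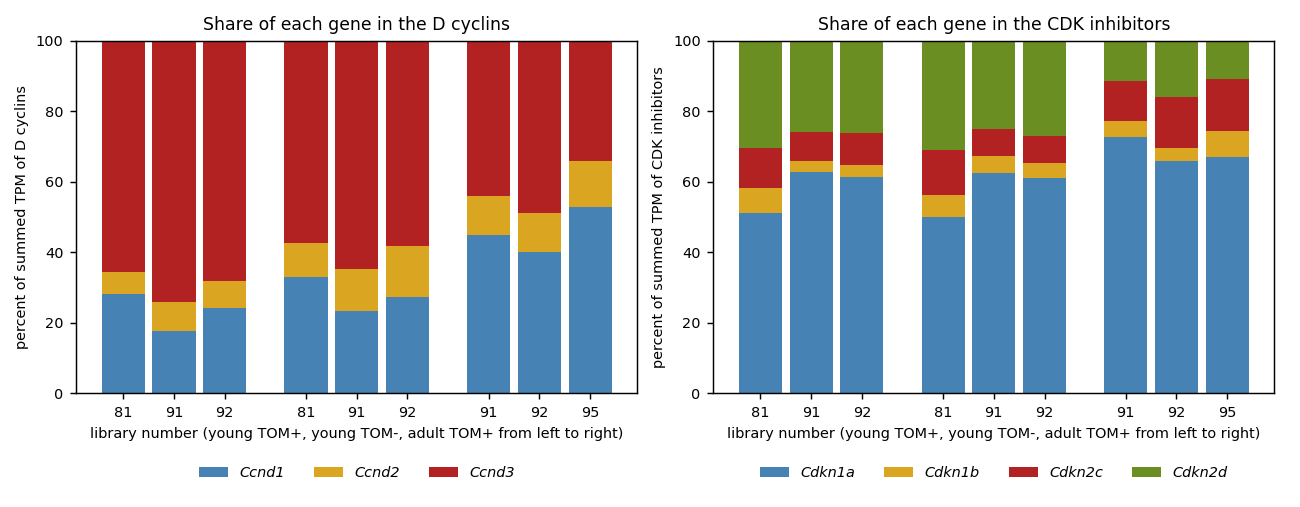
Percent of the summed TPM of the D cyclins (left) and of the 4 CDK inhibitors (right) taken by each gene in each of the 9 libraries, with library numbers on the horizontal axis. Ccnd3 took 57.4% or more of the D cyclins in all 6 young libraries and 48.7% or less in adults, and Cdkn2d took a larger part of the inhibitors in young libraries.

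The 2 kinases moved in opposite directions. Cdk4 (chr10:127063535-127067288) was at 282, 272 and 274 TPM in young TOM+ cDC2, at 252, 254 and 259 TPM in young TOM- DC2 and at 138, 153 and 153 TPM in adults. The groups did not overlap, and the spread within each was small. Cdk4 was 1.70-fold higher in young than in adult TOM+ cDC2 (log2 fold change 0.77 ± 0.08, adjusted p = 1.5e-05) and 1.54-fold higher in young TOM- DC2 than in adults (0.62 ± 0.08, adjusted p = 8e-05). It had the smallest p of the 10 genes in both comparisons. Between the young groups the difference was 0.14 (95% interval -0.03 to 0.31, adjusted p = 0.66), with TOM+ cDC2 higher within each of the 3 numbers by a log2 ratio of TPM of 0.08 to 0.16.

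Cdk6 (chr5:3341004-3531008) was at 3.39, 2.76 and 2.85 TPM in young TOM+ cDC2, at 4.70, 3.13 and 2.52 TPM in young TOM- DC2 and at 5.71, 6.85 and 6.45 TPM in adults. It rested on 64 to 159 reads per library, the fewest of the 10 genes, and every adult library was above every young one. Cdk6 was 2.31-fold higher in adults than in young TOM+ cDC2 (log2 fold change -1.21 ± 0.20, adjusted p = 0.00048) and 2.10-fold higher than in young TOM- DC2 (-1.07 ± 0.20, adjusted p = 0.0013). Because Cdk6 was so low, Cdk4 made up nearly all of the summed TPM of both kinases: 98.9 ± 0.0998% in young TOM+ cDC2, 98.7 ± 0.445% in young TOM- DC2 and 95.9 ± 0.158% in adults (exact permutation p = 0.1 for both comparisons with adults and 0.6 between the young groups). Summed, the kinases were at 279 ± 5.57, 258 ± 2.66 and 154 ± 9.29 TPM. The genes whose log2(TPM + 1) followed Cdk6 most closely over the 9 libraries, among 9085 genes, were Cstf2t (r = 0.991), Gm14446 (r = 0.984) and Klhl24 (r = 0.982). These 3 were also lower in the young groups than in adults, with Klhl24 at 8.5, 9.63 and 16.1 TPM, and the libraries share 3 groups and their scaling.

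Promoter windows of 300 bases, from 250 before to 50 after the start site in RefSeq (GRCm38.p6), were at hand for 7 of the 10 genes, in 10 windows. For Cdk6 and Cdkn2d the start site of the window lies inside the outer bounds of the gene. Both strands were searched for an E2F motif (TTTNNCGC), a CHR (TTTGAA), a GC box (GGGCGG), a CRE (TGACGTCA), an E-box (CACGTG) and a forkhead motif (GTAAACA), and the palindromes among them were counted once. The windows of Cdk4 and Cdk6 are shown because the 2 kinase genes moved in opposite directions. Capitals mark E-boxes, and in Cdk6 also the E2F motif. They are given 5′ to 3′ on the strand of the gene, which is the plus strand for both.
Cdk4, chr10:127063285-127063584: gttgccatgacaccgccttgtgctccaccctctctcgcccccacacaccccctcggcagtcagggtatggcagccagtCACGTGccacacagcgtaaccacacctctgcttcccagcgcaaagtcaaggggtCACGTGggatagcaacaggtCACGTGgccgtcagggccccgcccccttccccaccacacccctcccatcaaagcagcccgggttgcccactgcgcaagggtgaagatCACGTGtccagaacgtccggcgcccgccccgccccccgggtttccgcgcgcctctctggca
Cdk6, chr5:3343643-3343942: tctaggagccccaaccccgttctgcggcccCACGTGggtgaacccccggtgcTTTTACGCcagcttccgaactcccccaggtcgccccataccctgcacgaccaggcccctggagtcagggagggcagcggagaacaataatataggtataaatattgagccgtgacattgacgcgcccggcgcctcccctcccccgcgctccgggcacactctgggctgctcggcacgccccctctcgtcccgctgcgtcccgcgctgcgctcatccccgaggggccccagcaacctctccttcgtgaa
The Cdk4 window held 4 E-boxes, starting at -172, -118, -98 and -11 from the start site, which 8 of 32851 windows (0.0244%) match or exceed, and at least 1 E-box stood in 7.15% of all windows. The Cdk6 window held 1 E-box at -220 and the only E2F motif among the 10 windows, at -198, and that motif stood in 5.17% of all windows. Myc, whose product binds E-boxes and which is given here for that reason, was higher in young TOM+ cDC2 (log2 fold change 0.34, adjusted p = 0.0365) and in young TOM- DC2 (0.38, adjusted p = 0.0235) than in adults. A match of letters is a description of the window and was not tested for binding. The part of Myc in the differences of Cdk4 and Cdk6, which both hold an E-box and moved in opposite directions, was not tested.

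The INK4 genes likewise went apart. Cdkn2d, which encodes p19-INK4D, was higher in young cells, and Cdkn2c, which encodes p18-INK4C, was higher in adults. Cdkn2d (chr9:21288459-21291421) was at 68.3, 73.2 and 81.3 TPM in young TOM+ cDC2, at 71.0, 70.1 and 83.8 TPM in young TOM- DC2 and at 31.4, 44.8 and 28.6 TPM in adults. Both young groups lay well above the adults and on each other. Cdkn2d was 1.96-fold higher in young than in adult TOM+ cDC2 (log2 fold change 0.97 ± 0.17, adjusted p = 0.00069) and 1.93-fold higher in young TOM- DC2 (0.95 ± 0.17, adjusted p = 0.00094). Between the young groups it differed by 0.02 (95% interval -0.34 to 0.38). Without adult library 92, the highest of the adults, the difference in TOM+ cDC2 was 1.20.

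Cdkn2c (chr4:109660876-109666756) was at 25.5, 23.3 and 27.4 TPM in young TOM+ cDC2, at 29.0, 21.3 and 22.8 TPM in young TOM- DC2 and at 30.3, 39.8 and 39.8 TPM in adults. All adult libraries were above all young ones, the lowest of them by little. Cdkn2c was 1.54-fold higher in adults than in young TOM+ cDC2 (log2 fold change -0.62 ± 0.13, adjusted p = 0.0026) and 1.68-fold higher than in young TOM- DC2 (-0.75 ± 0.13, adjusted p = 0.00089). The young groups differed by 0.13 (95% interval -0.16 to 0.42). Of the other INK4 genes, Cdkn2b, encoding p15, was also higher in adults: it stood at 1.88 ± 0.368 TPM in young TOM+ cDC2, 1.69 ± 0.632 TPM in young TOM- DC2 and 7.78 ± 0.806 TPM in adults (log2 fold change -2.18 ± 0.25, adjusted p = 3.1e-05, and -2.40 ± 0.26, adjusted p = 2.4e-05). Cdkn2a was under 1 TPM on average in each group (log2 fold change -1.43, adjusted p = 0.191, in TOM+ cDC2).

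The windows of Cdkn2d and Cdkn2c are shown as the other pair that went apart, with GC boxes in capitals and both on the minus strand of the chromosome. For Cdkn2c the upstream one of 2 windows is given.
Cdkn2d, chr9:21291160-21291459: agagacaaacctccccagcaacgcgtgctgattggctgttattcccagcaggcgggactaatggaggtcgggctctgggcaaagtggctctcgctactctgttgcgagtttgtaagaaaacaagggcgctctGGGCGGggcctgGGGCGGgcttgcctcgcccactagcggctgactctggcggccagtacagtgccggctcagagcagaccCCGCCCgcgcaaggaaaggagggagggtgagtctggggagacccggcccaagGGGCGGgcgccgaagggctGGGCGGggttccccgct
Cdkn2c, chr4:109666707-109667006: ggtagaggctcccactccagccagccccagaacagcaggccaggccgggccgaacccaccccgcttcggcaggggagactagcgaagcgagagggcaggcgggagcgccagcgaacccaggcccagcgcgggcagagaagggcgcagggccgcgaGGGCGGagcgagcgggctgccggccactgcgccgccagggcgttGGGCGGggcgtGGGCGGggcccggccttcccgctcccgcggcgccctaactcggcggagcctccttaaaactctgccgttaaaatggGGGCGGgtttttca
The Cdkn2d window held 5 GC boxes and this Cdkn2c window held 4, and a GC box stood in 35.7% of all windows and in 7 of the 10 windows of the G1 genes. Neither window held any of the other 5 motifs. Over all 10 windows an E-box was found in 3 and a forkhead motif in 1, the upstream window of Ccnd3, against 3.65% of all windows, and no window held a CHR or a CRE, which stood in 17.9% and 1.79% of all windows.

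The CIP/KIP inhibitors did not pass in any comparison without the block. Cdkn1a (chr17:29090979-29100722), a main target of p53, was at 115, 178 and 190 TPM in young TOM+ cDC2, at 115, 174 and 189 TPM in young TOM- DC2 and at 199, 184 and 180 TPM in adults. Young and adult libraries overlapped, and within each library number the TOM+ and TOM- levels were nearly the same, with log2 ratios of 0.00 to 0.03. The log2 fold changes against adults were -0.35 (95% interval -0.83 to 0.12, adjusted p = 0.22) for TOM+ and -0.39 (-0.87 to 0.08, adjusted p = 0.18) for TOM- cells. With the number block, which takes the spread between numbers out of the young groups, they were -0.40 and -0.44, and both passed (adjusted p = 0.00065 and 0.00035). Those calls were lost when both libraries numbered 81 were left out, with the block still in the fit, where the differences were -0.16 (adjusted p = 0.19) and -0.19 (adjusted p = 0.12).

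Cdkn1b (chr6:134920401-134925525) was at 15.9, 8.56 and 10.8 TPM in young TOM+ cDC2, at 14.5, 13.3 and 13.1 TPM in young TOM- DC2 and at 12.8, 10.9 and 19.8 TPM in adults. All groups overlapped. The log2 fold change between young and adult TOM+ cDC2 was -0.44 (95% interval -0.90 to 0.02, adjusted p = 0.12). It passed without young TOM+ library 81 (-0.67, adjusted p = 0.021), without adult library 92 (-0.60, adjusted p = 0.049) and without the pair 81 (-0.69, adjusted p = 0.019). It was smaller without adult library 95 (-0.17, adjusted p = 0.52) and without young TOM+ library 91 (-0.28, adjusted p = 0.34). For TOM- DC2 against adults it was -0.24 (95% interval -0.70 to 0.21), and between the young groups -0.20 (-0.65 to 0.25). Cdkn1b protein is largely set by its degradation, which transcript levels do not show.

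Within the pool of the 4 inhibitors, Cdkn2d took 27.5 ± 2.53% in young TOM+ cDC2, 27.8 ± 2.96% in young TOM- DC2 and 12.7 ± 2.89% in adults (exact permutation p = 0.1 for both comparisons with adults, 0.9 between the young groups). Cdkn1a took the largest part in every library, with means of 58.5 ± 6.39%, 57.9 ± 6.83% and 68.6 ± 3.69%, and adults did not overlap the young (p = 0.1 by exact permutation). Cdkn2c took 9.48 ± 1.65%, 9.22 ± 2.98% and 13.4 ± 2.01%, and Cdkn1b 4.52 ± 2.22%, 5.12 ± 1.09% and 5.32 ± 1.82%, with overlapping groups. By TMM-scaled STAR counts per kilobase the means of the 4 inhibitors add to more in adults than in either young group, which was not tested. Cdkn1a was there at 96.7 ± 27.1, 94.0 ± 26.7 and 124 ± 9.28 CPM per kilobase. In TPM the summed level of the inhibitors was 273 ± 43.5, 272 ± 40.0 and 274 ± 5.45. The log2 ratio of summed D cyclins to summed inhibitors was 0.558 ± 0.367, 0.398 ± 0.378 and 0.312 ± 0.0832 (exact permutation p = 0.3 for young against adult TOM+ cDC2, 0.6 between the young groups and 0.8 for TOM- DC2 against adults). Within the numbers 81, 91 and 92 it was 0.146, 0.165 and 0.168 higher in TOM+ than in TOM- cells. The shares of Ccnd3, Ccnd1, Cdkn2d and Cdkn1a thus did not overlap between young and adult libraries, whereas the ratio of the pools did.

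Rb1 (chr14:73192858-73325951), the substrate of these kinases, was at 44.8, 33.2 and 36.7 TPM in young TOM+ cDC2, at 53.3, 36.7 and 38.5 TPM in young TOM- DC2 and at 48.6, 46.2 and 49.1 TPM in adults. Young TOM+ cDC2 lay below the adults, the TOM- library 81 lay above them, and both libraries numbered 81 were the highest of their groups. Rb1 was 1.39-fold higher in adults than in young TOM+ cDC2 (log2 fold change -0.47 ± 0.12, adjusted p = 0.0062), which did not pass with limma on log2(TPM + 1) (-0.33, adjusted p = 0.11). Against young TOM- DC2 the difference was -0.35 ± 0.12 (adjusted p = 0.033). That call was lost without young TOM- library 91 (adjusted p = 0.13) or 92 (0.096), without adult library 91 (0.094), 92 (0.06) or 95 (0.064), and with limma (0.37). Without the pair 81 it held (-0.50, adjusted p = 0.00073).

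**Figure D4:**
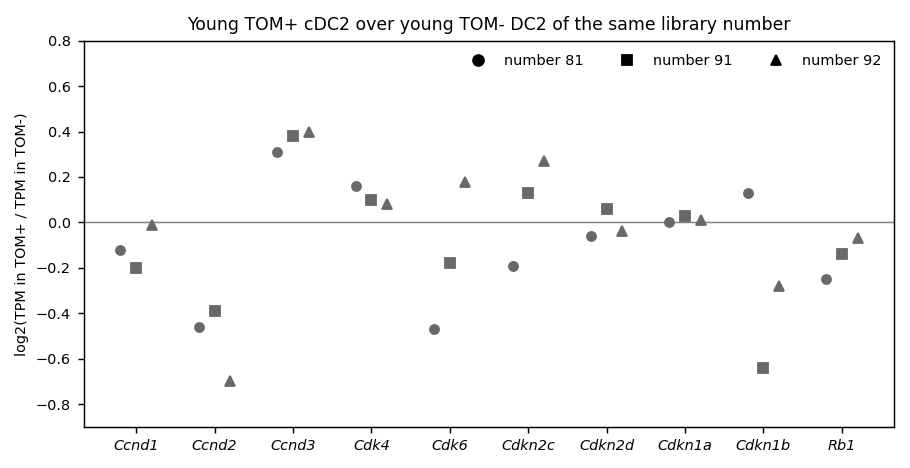
Log2 ratio of TPM in young TOM+ cDC2 over young TOM- DC2 of the same library number (vertical axis) for the 10 genes; each symbol is 1 of the 3 numbers. Ccnd2 lies below 0 and Ccnd3 and Cdk4 above 0 for all 3 numbers, whereas Cdkn1a lies at 0.00 to 0.03.

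Other genes of the pathway were counted in lists chosen by function. Over all genes tested, 21.0% were higher in young and 19.5% in adult TOM+ cDC2, which is the background for the counts that follow. Of 8 genes for cyclin E, cyclin A, CDK2 and the CDK-activating kinase, which act at the end of G1 and in S phase, 6 were higher in young than in adult TOM+ cDC2 and 2 did not pass. Ccne2 was at 17.6 ± 0.44 TPM in the young and 4.78 ± 0.33 TPM in adults (log2 fold change 1.64 ± 0.17, adjusted p = 1.4e-05), Ccna2 differed by 1.45 ± 0.19 (adjusted p = 6.7e-05) and Ccne1 by 1.43 ± 0.14 (adjusted p = 7.4e-06). Of 12 genes for pocket proteins, E2F and DP factors, 9 were higher in the young and 1 in adults. The largest were the repressors E2f8 (1.70 ± 0.15, adjusted p = 3.9e-06) and E2f7 (1.28 ± 0.15, adjusted p = 3.4e-05), then the activator E2f1 (1.08 ± 0.13, adjusted p = 4.9e-05) and the DP subunit Tfdp1 (1.05 ± 0.08, adjusted p = 2.1e-06). The 1 higher in adults was Rbl2, which encodes the pocket protein p130 of resting cells (-0.34, adjusted p = 0.0225).

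In the ubiquitin ligase list, whose products degrade cyclins and p27, 3 of 8 genes were higher in young TOM+ cDC2 and 1 in adults. Cks1b (277 ± 31.3 against 87.0 ± 8.46 TPM, log2 fold change 1.57 ± 0.16, adjusted p = 1.4e-05) and Skp2 (1.02 ± 0.14, adjusted p = 0.00012) encode partners that bring p27 to its ligase, and both were higher in the young. The third was Rbx1 (0.26, adjusted p = 0.0472), and the gene higher in adults was Ambra1, whose product directs D cyclins to degradation (-0.39, adjusted p = 0.00217). Of 5 MuvB core genes 2 were higher in the young, Lin9 (1.16 ± 0.16, adjusted p = 9.4e-05) and Rbbp4 (0.48, adjusted p = 0.000404), and 1 in adults, Lin37 (-0.37, adjusted p = 0.0114). Of 10 regulators of D cyclin and inhibitor genes 2 were higher in the young, Myc and Smad3 (0.44, adjusted p = 0.0484), and 4 in adults. The latter were the repressor Bcl6 (-1.57 ± 0.19, adjusted p = 4.4e-05), Foxo3, which activates Cdkn1b (-1.46 ± 0.19, adjusted p = 9e-05), Klf2 (-1.15 ± 0.39, adjusted p = 0.033) and the immediate early gene Egr1 (-0.90, adjusted p = 0.00626). Of 20 genes for p53 and its targets 19 were tested; 9 were higher in adults, against 19.5% of all genes, and none in the young. The largest were Fas (-2.13 ± 0.26, adjusted p = 4.5e-05) and Trp53inp1 (-1.33 ± 0.26, adjusted p = 0.0013), and the antiproliferative gene Btg2 was at 1060 ± 186 TPM in the young and 2250 ± 128 TPM in adults (-1.19 ± 0.15, adjusted p = 5.5e-05). Trp53 itself did not pass (0.19, adjusted p = 0.105).

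Of 22 proliferation genes 21 were higher in young TOM+ cDC2 and 1, Pcna, did not pass (0.26, adjusted p = 0.071). Examples are Bub1 (1.65 ± 0.15, adjusted p = 5.1e-06) and Tk1 (1.23 ± 0.09, adjusted p = 1.3e-06). Their summed level was 2860 to 3000 TPM in young TOM+ cDC2, 2610 to 2700 TPM in young TOM- DC2 and 1160 to 1390 TPM in adults, without overlap. It moved in the direction of Cdk4, Ccnd3 and Cdkn2d, and its part in their differences was not tested. In young TOM- DC2 against adults the lists gave like counts, with 6 of 8, 8 of 12 and 21 of 22 higher in the young in the cyclin E, E2F and proliferation lists, and 9 of 19 p53 genes higher in adults, against 19.4% of all genes higher in the young and 16.9% in adults.

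**Figure D5:**
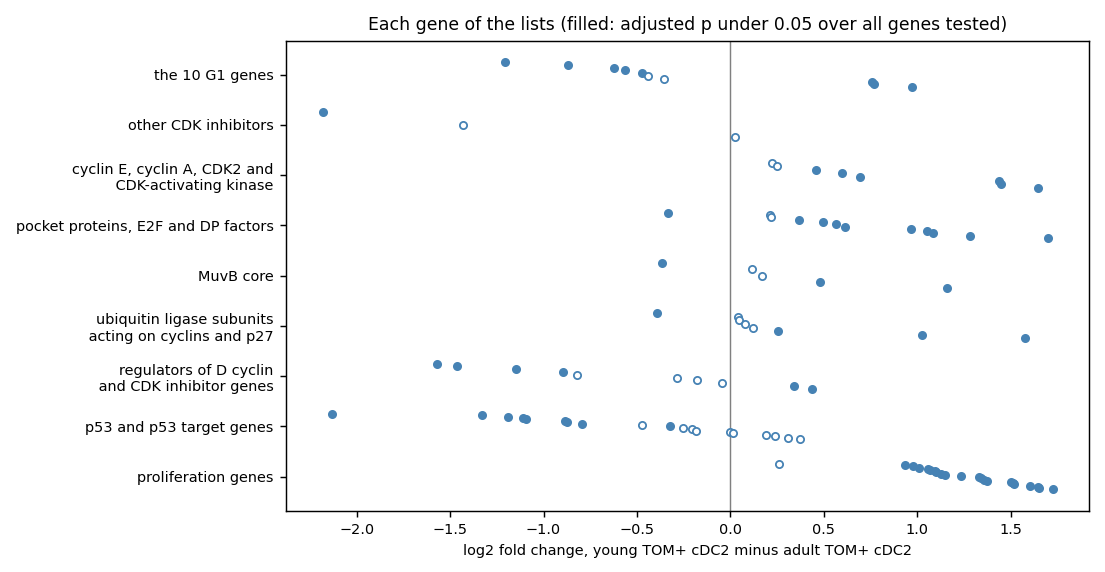
Log2 fold change between young and adult TOM+ cDC2 (horizontal axis) of each gene of the 10 G1 genes and of 8 lists (rows); filled points passed an adjusted p under 0.05 over all genes tested. The 10 G1 genes lie on both sides of 0, the 22 proliferation genes all lie above 0, and the 9 filled p53 genes lie below 0.

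Between TOM+ cDC2 and TOM- DC2 of postnatal day 8 no gene of the 8 lists passed. In direction, 21 of 22 proliferation genes and 11 of 12 pocket protein, E2F and DP genes were higher in TOM+ cDC2. Their median log2 fold changes were 0.19 and 0.12, against 0 for all genes tested. Medians of the other lists lay between 0.01 and 0.09. The study reported an enrichment of cell cycle genes in TOM+ cDC2 of this age, and the lists were not tested as sets here. With the number block Rbl2 passed and was higher in TOM- DC2 (-0.37, adjusted p = 0.036), as it did with DESeq2 (-0.37, adjusted p = 0.049). Its mean was 30.9 TPM in young TOM+ cDC2, 40.9 TPM in young TOM- DC2 and 35.8 TPM in adults.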

How the data were processed

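Messenger RNA was sequenced from 9 libraries of sorted splenic dendritic cells. RNA was isolated with the PicoPure kit, copied with SMARTseq v4 chemistry, which keeps no strand, and read as single ends. The authors aligned reads to mm10 with STAR and deposited its unnormalized counts of reads per gene; reads given to no gene, which are those unmapped, multimapping, ambiguous or outside genes (26.1% to 31.6%), were left out of library sizes. The authors also deposited RSEM expected counts, which were rounded where tested, and TPM, which served for levels and shares. The versions of STAR and RSEM are not given in the sources used here. The unstranded counts of all 9 libraries were tested in R 4.3.3 with edgeR 4.0.16 (quasi-likelihood, TMM) for the 14452 genes whose counts averaged 1 or more, and p-values were adjusted over all of them (Benjamini-Hochberg). Passed means an adjusted p under 0.05. Single shares were compared by exact two-sided permutation tests. Intervals cover the spread between libraries.

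Alternatives were RLE scaling, other filters, DESeq2 1.42.0 with and without apeglm 1.24.0, RSEM counts, limma 3.58.1 on log2(TPM + 1) and log2(TPM + 0.1), only the compared groups, a block on the library number and leaving out each library. The labels give no replicate numbers; the block rests on the deposited names, and same-numbered young libraries deviated together (r = 0.75, 0.50 and 0.52), each most like its own number, while the adults were given no block (r with same-numbered young libraries 0.00 to 0.16). The labels do not state separate animals, so p-values measure the spread between these libraries. No libraries of a group were copies (lowest chi-square per gene 8.743). On simulated counts for young against adult TOM+ cDC2, over 14259 genes, edgeR recovered 83% of 100 genes changed by a log2 of 0.8 and 99% of 100 changed by 1.5, with 13 false calls. The changed genes were well counted and far fewer than the 40.6% of genes that passed in the data. Libraries were drawn independently, so these rates need not hold for the data. The genes and lists were chosen with earlier results of these data known. Named from the lists were up to 4 called genes of smallest adjusted p per comparison. Where none was called, up to 2 that passed were named. Also named were the 3 genes most like Cdk6 among those with a mean of at least 5 TPM. Markers of other cells are given as sums, with single genes for monocytes and macrophages, cDC1 and pDC. Cdkn2a, Rbl2, Rbx1, Ambra1, Rbbp4, Lin37, Myc, Smad3, Egr1, Trp53 and Pcna were named after their values were seen.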

Additional observations from a re-analysis of the deposited data

Results flagged for a closer look

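Ccnd2 was marked because its distance from adult TOM+ cDC2 differed between the 2 groups of young cells by a test of the difference itself. Adults were 1.48-fold above young TOM+ cDC2 and 1.05-fold above young TOM- DC2, of which only the first passed the test, so that the difference of these differences, which is the TOM+ against TOM- contrast because the adults cancel, was -0.49 on the log2 scale (SE 0.11, edgeR adjusted p = 0.04). That call was lost when the adults were left out of the fit (edgeR adjusted p = 0.081). It was also lost without most of the single libraries (edgeR adjusted p from 0.056 to 0.2). All 3 young TOM+ libraries were below all 3 young TOM- libraries, as in 14.4% of all genes for either direction. Groups of 3 libraries are too small for a test of single outlying libraries.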

How the results depend on the processing

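Of the 10 genes, those that passed between young and adult TOM+ cDC2 numbered 7 to 9 and those between young TOM- DC2 and adults 5 to 8 over all alternatives, against 8 and 6. Between the young groups the count went from 1 to 0 in the fit of only these 2 groups and ranged from 0 to 1 over single left-out libraries. All genes passed there numbered 231, against 367 with DESeq2, 367 with apeglm, 405 with the replicate block and 147 to 251 without single libraries (147 without young TOM+ library 92 and 152 without 91). Pathway list genes were 0 there, against 1 with DESeq2, 1 with apeglm and 1 with the replicate block. Beside Cdkn1a and, for TOM- DC2 against adults, Ccnd3, the block changed no other call of the 10 genes.

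Signs turned only for differences near 0. Between the young groups Cdkn2d was -0.01 with limma at both pseudocounts and Cdk6 0.00 without both libraries numbered 81 (0.01 with the replicate block too). For TOM- DC2 against adults Ccnd2 was 0.08 with limma at both pseudocounts and 0.00 without the pair 81, and the log2 ratio of D cyclins to inhibitors was -0.0297 with TMM-scaled STAR counts. Over single left-out libraries, log2 fold changes between the young groups ranged from -0.18 to 0.25 for Cdkn1a, -0.07 to 0.13 for Cdkn2d, -0.28 to 0.13 for Ccnd1, -0.31 to 0.10 for Cdk6 and -0.21 to 0.02 for Rb1, and for TOM- DC2 against adults from -0.40 to 0.03 for Cdkn1b and -0.20 to 0.02 for Ccnd2. Differences of shares, in percentage points, ranged between the young groups from -3.33 to 4.26 for Cdkn1a, -1.87 to 0.152 for Cdkn1b, -0.676 to 1.98 for Cdkn2c and -1.71 to 1.35 for Cdkn2d. Against adults they ranged from -2.07 to 0.233 for Cdkn1b in TOM+ cDC2, and in TOM- DC2 from -0.896 to 0.833 for Cdkn1b and -0.979 to 1.41 for Ccnd2. The log2 ratio ranged from -0.0438 to 0.37 between the young groups and from -0.125 to 0.242 for TOM- DC2 against adults. The cause was not tested. Of 660 values of single genes under alternatives, 611 kept their direction and their side of the threshold, 18 lost the call, 11 gained it and 20 turned sign. Summing the stranded columns and leaving out the pair 81, with and without the block, were chosen after seeing the data. With 3 libraries a group no permutation p under 0.1 was possible, and Cdk6 rested on few reads.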
